A study of Mus musculus with 6 samples.

Results

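The genes described here encode the machinery that places, reads and removes methylation of lysine 9 of histone H3 (H3K9) and methylation of DNA. They were taken as a list of 31 gene symbols, all of which were found among the 37252 annotated genes of the 20 chromosomes covered (22350 of these genes are protein-coding). The list has 6 roles: 6 H3K9 methyltransferases (writers), 6 cofactors of the writers, 4 readers, 7 demethylases (erasers), 5 genes of DNA methylation and 3 of chromatin assembly. For each gene it was asked where Setdb1 and trimethylated H3K9 (H3K9me3) were found at its start, in its body and around it in C2C12 cells, an established mouse line of skeletal muscle myoblasts.

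H3K9me3 is a mark of silent chromatin. Writers such as Setdb1 place it, often after recruitment by Trim28, which itself is brought to DNA by zinc finger proteins, and the heterochromatin proteins of the Cbx family bind it. In many tissues H3K9 methylation and DNA methylation are found together over repeats, imprinted genes and genes of other lineages.

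The labels name 6 libraries, each the only one of its group. They are H3K9me3, untreated Setdb1, Setdb1 in cells given DMSO and Setdb1 in cells treated with the ligand Wnt3a (50 ng/ml, 24 h). In addition there is 1 input library per antibody. According to the study, the C2C12 cells were proliferating. The values below come from 3 region lists: 1191 Setdb1 sites called with MACS, 80480 narrow H3K9me3 peaks called with MACS and 23268 broad H3K9me3 islands called with SICER. The Setdb1 table does not say from which of the Setdb1 libraries it was made, and according to the study the better enriched experiment was taken. The study regards its count of Setdb1 sites as too low. It names sequencing depth that had not levelled off and, as most likely, the indirect contact of Setdb1 with DNA. A gene without a listed site may therefore still be bound. With 1 list per antibody there was no spread between replicates, so no test was made, and intervals cover counting error only. The lists hold no expression values, and the cell label could be checked at loci only: of 6 myoblast marker genes (Myod1, Myf5, Pax7, Des, Cdh15 and Chrna1) 0 had a Setdb1 site within 50 kb of a start, 0 had a peak or island within 1 kb of a start, and Pax7 and Cdh15 had an H3K9me3 peak further inside the gene. A peak and an island lay within 50 kb of a start in 3 of the 6. The shares of protein-coding genes are given with the counts below (8.14% for a Setdb1 site within 50 kb and 26.0% for a peak in the body), and 6 genes are too few to tell the markers from them. The tags (reads) in a region are the depth behind its values, since library totals were not used.

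A Setdb1 site lay within 10 kb of an annotated transcript start in 3 of the 31 genes: Morc2a, Kdm3a and Kdm1a. The sequences of these sites are printed first, because the printed windows differed in base composition and the sites in H3K9me3. All are from the plus strand of the mm9 reference, not from C2C12 reads. For Kdm3a and Kdm1a the 300 bases around the summit are shown (chr6:71583628-71583927 and chr4:136126101-136126400). For Morc2a the 300 bases of the site that precede the start of the gene are shown (chr11:3549197-3549496). The fourth window is centred on the H3K9me3 peak with the highest fold enrichment at a start of the 31 genes, which lay in Kdm1a (chr4:136125872-136126171) and overlapped the Setdb1 window. This peak counted at a start by its edge, 756 bp from an internal start of Kdm1a. Its summit, on which the window is centred, lay 1499 bp from that start. Capitals mark matches, on either strand, to the motifs named after the sequences.
Morc2a Setdb1 site: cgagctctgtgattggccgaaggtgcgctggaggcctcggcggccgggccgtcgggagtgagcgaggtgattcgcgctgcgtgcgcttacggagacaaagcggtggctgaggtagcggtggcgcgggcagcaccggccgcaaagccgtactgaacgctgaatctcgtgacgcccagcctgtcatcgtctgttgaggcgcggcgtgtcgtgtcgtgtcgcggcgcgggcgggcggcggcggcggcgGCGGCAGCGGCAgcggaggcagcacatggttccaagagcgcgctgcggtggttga
Kdm3a Setdb1 site: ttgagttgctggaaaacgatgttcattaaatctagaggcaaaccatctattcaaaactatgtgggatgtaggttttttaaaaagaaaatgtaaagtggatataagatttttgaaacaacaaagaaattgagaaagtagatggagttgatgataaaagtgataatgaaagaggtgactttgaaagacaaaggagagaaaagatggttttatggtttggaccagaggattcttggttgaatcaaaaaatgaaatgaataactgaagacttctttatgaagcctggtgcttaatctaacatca
Kdm1a Setdb1 site: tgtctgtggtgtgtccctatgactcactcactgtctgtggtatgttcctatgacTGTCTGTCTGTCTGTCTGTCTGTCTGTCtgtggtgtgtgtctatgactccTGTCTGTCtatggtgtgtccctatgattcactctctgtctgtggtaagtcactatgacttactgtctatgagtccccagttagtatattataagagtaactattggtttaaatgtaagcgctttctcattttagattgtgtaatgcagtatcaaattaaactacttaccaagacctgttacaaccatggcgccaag
Kdm1a H3K9me3 peak: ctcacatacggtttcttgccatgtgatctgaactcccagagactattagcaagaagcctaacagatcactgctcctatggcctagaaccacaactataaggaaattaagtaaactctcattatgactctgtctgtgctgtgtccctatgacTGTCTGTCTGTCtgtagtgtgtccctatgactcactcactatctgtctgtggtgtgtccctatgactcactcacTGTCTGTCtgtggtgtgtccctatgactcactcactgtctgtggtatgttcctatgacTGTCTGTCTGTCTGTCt

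The Morc2a sequence was rich in CpG: 70.7% of its bases were G or C and it held 46 CpG, a ratio of observed to expected CpG of 1.29. The Kdm3a sequence was the opposite, with 32.0% G or C and 1 CpG (ratio 0.161). The Kdm1a Setdb1 window lay between them in base composition, with 41.7% G or C, and held 2 CpG (ratio 0.154). Over the windows around the summits of all 1191 Setdb1 sites the median was 46.0% G or C with a ratio of 0.182. Kdm3a lay below this median in G and C. The Morc2a window was placed by the gene start and left out the summit of its site. Its values are therefore not of the same kind as this median or as the Kdm3a and Kdm1a windows.

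Searched on both strands were the E-box CACGTG of Myc-like factors, the E-box CAGCTG that Myod1 can bind, the E2F motif TTCCCGCC, the Nrf1 motif GCATGCGC, the Ets motif CCGGAAGT and the short motif TGCCGC. Of these only TGCCGC was found in any of the windows printed, and only in Morc2a, where it lay in a stretch of repeated GCG. TGCCGC was present in 7.05% of all Setdb1 windows, 3.26% of all H3K9me3 peak windows and 13.7% of promoter windows of the same length. The printed Morc2a window lies before a start and holds no summit, unlike the Setdb1 windows counted here. The capitals of both Kdm1a windows mark TGTCTGTC, a motif added after the sequences had been seen. It was present in 3.95% of Setdb1 windows, 3.18% of H3K9me3 peak windows and 1.91% of promoters. The repeat of this unit ran without a break for 32 bases in the Setdb1 window of Kdm1a, and a run of 32 bases or more with a period of 4 bases occurred in 2.35% of Setdb1 windows, 1.99% of H3K9me3 peak windows and 1.80% of promoters. These are matches of letters and no binding was measured at them.

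Setdb1 sites at a start, taken as within 1 kb of any annotated transcript start, were found for Morc2a and Kdm3a, or 6.45% of the 31 genes (exact 95% binomial interval 0.791 to 21.4%) against 1.11% of protein-coding genes. In the body, that is inside the gene and outside these start windows, a site was found for Kdm1a only (3.23%, 0.0816 to 16.7%, against 1.76%). Within 10 kb of a start there were 3 genes (9.68%, 2.04 to 25.8%, against 2.48%), and within 50 kb 4 genes, with Atf7ip added (12.9%, 3.63 to 29.8%, against 8.14%). Each of these intervals included the share of all protein-coding genes. A site that overlapped an H3K9me3 peak or island lay within 10 kb of a start in Morc2a and Kdm1a, against 1.32% of protein-coding genes.

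For H3K9me3, the 31 genes lay close to the background in every zone. A peak was found at a start in 3 genes (Morc2a, Kdm3b and Kdm1a, against 8.71% of protein-coding genes), in the body in 6 (19.4%, 7.45 to 37.5%, against 26.0%), within 10 kb in 13 (41.9%, 24.6 to 60.9%, against 32.8%) and within 50 kb in 25 (80.7%, 62.5 to 92.6%, against 74.4%). An island was found at a start in 3 genes (Atf7ip, Morc2a and Kdm1a, against 8.58%), in the body in 7 (22.6%, 9.59 to 41.1%, against 18.6%), within 10 kb in 8 (25.8%, 11.9 to 44.6%, against 20.8%) and within 50 kb in 18 (58.1%, 39.1 to 75.5%, against 49.9%). The machinery genes were longer than most, with a median of 40.1 kb against 15.4 kb for protein-coding genes, and among protein-coding genes those with a peak in the body had a median length of 62.6 kb against 9.89 kb for those without. Counts in the body therefore have to be read beside the length of the genes.

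**Figure D1:**
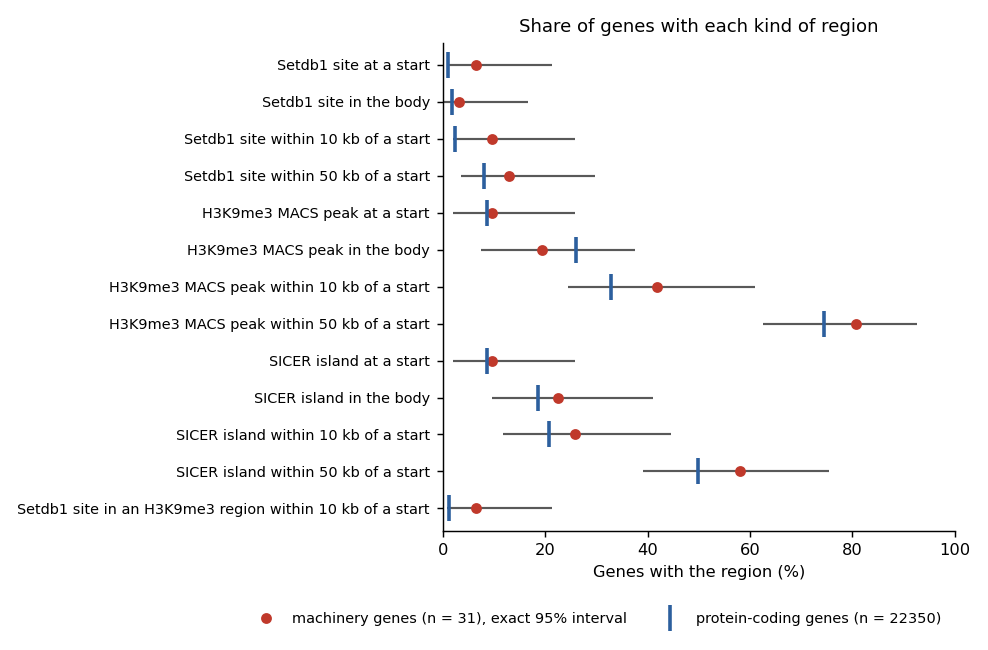
Share of genes (%, horizontal axis) with each kind of region (vertical axis). Red points are the 31 machinery genes with exact 95% intervals as lines, and blue ticks are the 22350 protein-coding genes. The H3K9me3 shares lie near their ticks, for example 41.9% against 32.8% for a MACS peak within 10 kb of a start.

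By role, a region of any kind at a start, in the body or within 10 kb was found for 3 of 6 writers, 3 of 6 cofactors, 2 of 4 readers, 4 of 7 erasers, 2 of 5 genes of DNA methylation and 1 of 3 genes of chromatin assembly. That made 15 of the 31 genes, against 43.5% of protein-coding genes. Each role holds few genes, and differences between roles were not tested. The 16 genes with no region in these zones were Suv39h2, Ehmt1, Prdm2, Trim28, Mphosph8, Pphln1, Cbx1, Cbx3, Kdm4a, Kdm4b, Kdm4d, Dnmt3a, Dnmt3b, Uhrf1, Chaf1a and Chaf1b.

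**Figure D2:**
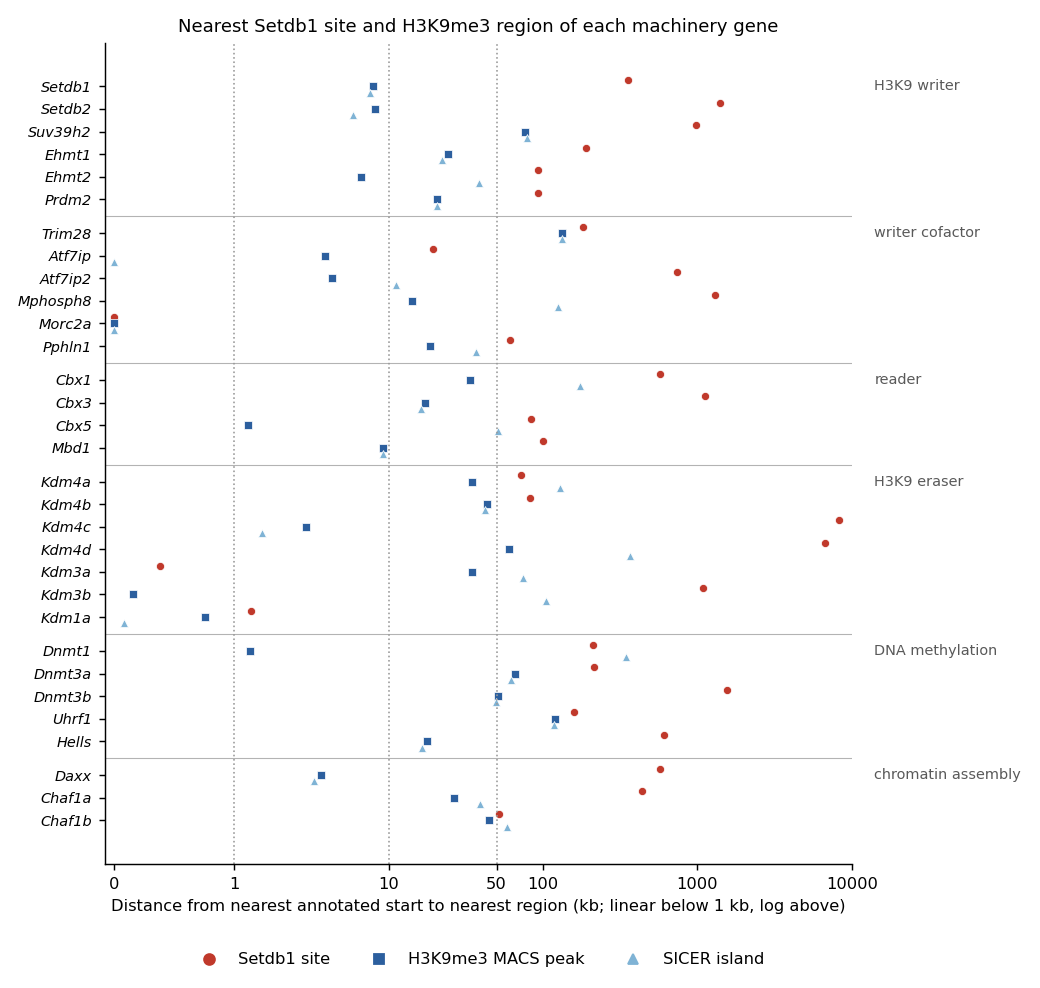
Distance in kb (horizontal axis, linear below 1 kb and logarithmic above) from the nearest annotated start of each of the 31 genes (rows, grouped by role) to the nearest Setdb1 site (circles), H3K9me3 MACS peak (squares) and SICER island (triangles), with dotted lines at 1, 10 and 50 kb. Circles are to the left of the 10 kb line for Morc2a, Kdm3a and Kdm1a only, and Morc2a has all 3 symbols at 0.

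Among the writers no start or body carried a Setdb1 site, and the Setdb1 gene itself was the only writer with H3K9me3 inside the gene. Setdb1 (ENSMUSG00000015697.8, chr3:95127447-95161124, minus strand) had an intronic H3K9me3 peak at chr3:95152514-95153131, 7.88 kb from the nearest start. The peak had 41 tags (exact Poisson 95% interval 29.4 to 55.6) and a fold enrichment over the background of 5.42, which was higher than that of 30.6% of all peaks. An island of 0.800 kb overlapped it, peak and island together covered 2.63% of the gene, and the nearest Setdb1 site lay 356 kb away. The gene of the immunoprecipitated methyltransferase thus held no listed site of it, which does not exclude binding that was not called. Its listed H3K9me3 was limited to 1 short region.

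Setdb2, a related methyltransferase, had 2 peaks upstream at distances of 8.15 and 8.61 kb with folds of 6.87 and 4.81, under an island that ended 5.88 kb from its start. These lay about equally near the start of Cab39l. Ehmt2, which encodes G9a, a writer of mono- and dimethylated H3K9, had 1 peak of 14 tags and 4.40-fold 6.67 kb upstream, nearer to Zbtb12 at 2.76 kb. For its partner Ehmt1 the nearest peak was 24.1 kb away, for Prdm2 20.6 kb and for Suv39h2, a writer of pericentromeric heterochromatin, 76.2 kb. Suv39h2 had no H3K9me3 base in the gene or the 50 kb on either side.

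The cofactors held the gene record with the highest cover by H3K9me3 and the only site over a start. Morc2a (ENSMUSG00000034543.8, chr11:3549497-3590480, plus strand) encodes an ATPase that acts with the HUSH silencing complex. Its Setdb1 site at chr11:3549132-3549721 lay over the start, with the summit 34 bp from it. The site had 36 tags (25.2 to 49.8) and a fold of 5.88, rank 950 of the 1191 sites, so by fold it was among the weaker sites of the list. Its tags were near the list median of 33.

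H3K9me3 at Morc2a was strongest before the gene. A peak at chr11:3540389-3547046 had 474 tags (432 to 519), the most of any peak of the 31 genes, and a fold of 8.21, higher than that of 91.4% of all peaks. Its nearest edge lay 2.45 kb from the start of Morc2a and 369 bp from an annotated start of Tug1, a noncoding RNA gene. Another annotated start of Tug1 was 317 bp from the Setdb1 site. The 3 peaks at the Morc2a starts were smaller, with 26, 14 and 18 tags and folds of 5.82, 6.27 and 6.24. An island of 18.8 kb (chr11:3537001-3555800) ran over the starts of both genes, so the lists do not tell whether the site and the mark belong to Morc2a or to Tug1.

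Atf7ip (ENSMUSG00000030213.6, chr6:136467372-136555898, plus strand) encodes the protein that keeps Setdb1 stable in the nucleus. It carried more H3K9me3 peaks than any other gene of the list, with 10 in the body, all intronic, holding 386 tags together at folds between 4.81 and 8.93. The strongest of them had 125 tags (104 to 149) and 101 tags (82.3 to 123), both at 8.93-fold, above 94.8% of all peaks. Its 4 islands, of 7.80, 10.8, 5.80 and 6.60 kb, included 1 over the start.

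Peaks and islands covered 27.9% of the Atf7ip gene, more than in 94.1% of protein-coding genes. The Setdb1 site near Atf7ip lay outside the gene, 19.3 kb upstream at chr6:136447468-136448040, with 38 tags (26.9 to 52.2) and a fold of 8.58, rank 341. It overlapped an island but no peak, and the peaks on either side of it within that island had folds of 7.05 and 8.53. The nearest other start, of Gm6728, was 8.81 kb from the site. The annotation has a second, shorter record of the same symbol, and the start, body and cover values of Atf7ip hold for the longer record only.

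The remaining cofactors had few or no listed regions at the gene. Atf7ip2, a paralogue of Atf7ip, had 2 small peaks upstream, with 11 and 12 tags and folds of 4.81 and 5.50, at 5.96 and 4.33 kb. Its nearest listed Setdb1 site in C2C12 cells was 738 kb away. In mouse embryonic stem cells, however, the study shows Setdb1 at the Atf7ip2 promoter, with less signal in Setdb1 knockout cells, as a check of its antibody. Trim28, the corepressor that joins zinc finger proteins to Setdb1, had no H3K9me3 base in the gene or in the 50 kb on either side. Its nearest peak was 133 kb and its nearest Setdb1 site 181 kb away. Mphosph8 and Pphln1, which encode subunits of HUSH, had their nearest peaks at 14.1 and 18.7 kb. Pphln1 differed from Mphosph8 in its surroundings, as 20.9% of the bases of the gene with 50 kb on each side were under H3K9me3 against 0.473%, although neither gene body held any.

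**Figure D3:**
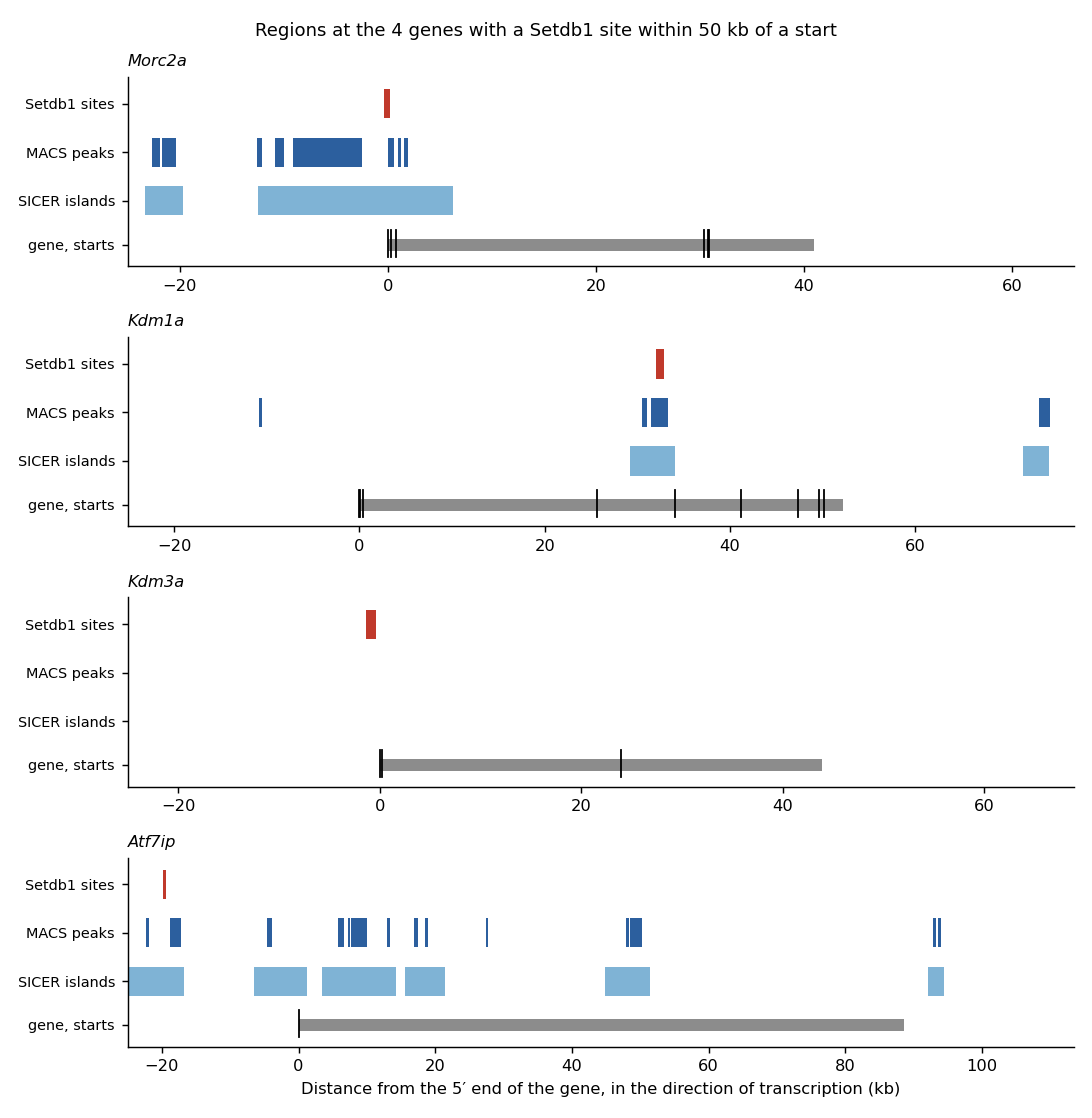
Maps of the 4 genes with a Setdb1 site within 50 kb of a start, by distance from the 5′ end of the gene in kb (horizontal axis, in the direction of transcription, 25 kb beyond each gene). Rows show Setdb1 sites (red), H3K9me3 MACS peaks (dark blue), SICER islands (light blue) and the gene (grey) with its annotated starts (black ticks). Setdb1 and H3K9me3 overlap at Morc2a and Kdm1a, the site upstream of Atf7ip lies in an island only, and Kdm3a has a site and no H3K9me3 region.

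Among the erasers, Kdm3a and Kdm1a each had a Setdb1 site and differed in H3K9me3. Kdm3a (ENSMUSG00000053470.6, chr6:71538968-71582899, minus strand) encodes a demethylase of mono- and dimethylated H3K9. Its site at chr6:71583283-71584212 lay 384 bp before the start, with the summit 878 bp from it. It had 56 tags (42.3 to 72.7) and a fold of 8.06, rank 378 of 1191. No H3K9me3 region overlapped it, and the nearest peak and island to the starts of the gene were 34.5 and 74.5 kb away.

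Kdm1a (ENSMUSG00000036940.9, chr4:136106455-136158638, minus strand) encodes LSD1, a demethylase best known for histone H3 lysine 4 that has also been tied to H3K9 in human cells. Its Setdb1 site at chr4:136125796-136126590 overlapped an exon in the middle of the gene, 32.0 kb from the 5′ end and 1.27 kb from an internal annotated start. The site had 46 tags (33.7 to 61.4) and a fold of 6.13, rank 852. Near and under it lay 3 H3K9me3 peaks with 148 tags together.

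The strongest of these Kdm1a peaks, at chr4:136126582-136127184, had 51 tags (38.0 to 67.1) and a fold of 11.68, the highest of the 31 genes and above 99.0% of all peaks. The peak at chr4:136125278-136126580 had 76 tags (59.9 to 95.1) and 6.49-fold, and the last had 21 tags and 4.81-fold. All 3 lay in an island of 4.80 kb, and H3K9me3 covered 9.20% of the gene. With the 5′ end of the gene as its only start, Kdm1a no longer counts as a gene with a site within 10 kb or with H3K9me3 at a start.

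Of the Kdm4 erasers, which act on trimethylated H3K9, only Kdm4c held H3K9me3. Its 2 intronic peaks had 34 and 11 tags and folds of 4.81 and 5.50, and the first lay 16.6 kb from the 5′ end and 2.90 kb from an internal start, inside an island of 3.00 kb. Another island lay 5.60 kb upstream, with no peak. Kdm4c was also the gene farthest from any Setdb1 site, at 8240 kb. For Kdm4a, Kdm4b and Kdm4d the nearest peaks were 34.6, 43.3 and 60.0 kb away. Kdm3b, a paralogue of Kdm3a, had 2 H3K9me3 peaks upstream of its start, at 154 and 897 bp, and no island there. These peaks were weak, with 26 and 17 tags and folds of 5.07 and 3.98, higher than 26.4% and 1.57% of all peaks. The nearest listed Setdb1 site was 1080 kb away.

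None of the readers had a Setdb1 site within 50 kb of a start or an H3K9me3 peak in the body. Mbd1, which binds methylated CpG and in human cells brings Setdb1 to them, was the reader with most of the mark. An island of 11.0 kb lay over the 3′ end of the gene and covered 14.8% of it, but also the start of the neighbouring gene Ccdc11. A peak 9.23 kb upstream of Mbd1 had 73 tags (57.2 to 91.8) and a fold of 10.31, above 97.9% of all peaks. With 50 kb on each side, 41.4% of the bases were under H3K9me3, the highest share of the 31 genes and more than for 98.6% of protein-coding genes.

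The heterochromatin proteins that bind H3K9me3 are encoded by Cbx1, Cbx3 and Cbx5. Cbx5 had a peak of 23 tags and 4.71-fold 1.22 kb before its nearest start, which lay nearer, at 523 bp, to the start of its divergent neighbour Hnrnpa1. Cbx3 had a bare body in marked surroundings, with 12.03% of the gene and its flanks covered and the nearest peak at 17.3 kb. For Cbx1 the nearest peak was 33.5 kb away and 1.14% of the gene and its flanks was covered.

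Of the genes of DNA methylation, Hells, a chromatin remodeller needed for normal DNA methylation, was the only one with H3K9me3 in the body. Its 3 intronic peaks had 35, 15 and 22 tags and folds of 9.62, 4.81 and 5.50, and the first was above 96.7% of all peaks. An island of 3.40 kb held them, 8.47% of the gene was covered, and the nearest Setdb1 site was 609 kb away. Dnmt1, the maintenance methyltransferase, had a single peak of 18 tags and 6.87-fold 1.26 kb before its start and no island nearer than 346 kb.

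Dnmt3a and Dnmt3b, which methylate DNA de novo, had their nearest peaks at 65.5 and 51.4 kb. For Uhrf1, which guides Dnmt1 to newly replicated DNA, it was 119 kb. No base of Dnmt3a or Uhrf1 or of the 50 kb on either side was under H3K9me3. Uhrf1 and Kdm4b are neighbours 2.58 kb apart on chromosome 17, where Chaf1a lies 236 kb from Uhrf1, so these genes share their nearest Setdb1 site and their distances are not independent.

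Of the genes of chromatin assembly, Daxx, a chaperone of histone H3.3, had a peak of 40 tags and 4.98-fold beyond its 3′ end, 3.67 kb from the nearest start of Daxx and 1.06 kb from that of Zbtb22, under an island at 3.30 kb. Chaf1a and Chaf1b, subunits of the complex that loads histones behind the replication fork, had their nearest peaks at 26.5 and 44.8 kb. Chaf1b lay just outside the 50 kb limit for Setdb1, as a site over the start of Morc3 was 51.7 kb away.

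Cover by H3K9me3 was concentrated in few of the genes. No base of the gene record was under a peak or island in 24 of the 31 genes (77.4%), against 70.1% of protein-coding genes. After Atf7ip at 27.9%, the covered genes were Morc2a (15.4%), Mbd1 (14.8%), Kdm1a (9.20%), Hells (8.47%), Setdb1 (2.63%) and Kdm4c (2.00%). With 50 kb on each side the median was 2.52% against 1.95% for protein-coding genes. In this wider measure Pphln1 (20.9%), Prdm2 (13.0%) and Cbx3 (12.03%) ranked with the covered genes although their bodies were bare, and cover was 0 for Suv39h2, Trim28, Dnmt3a and Uhrf1.

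**Figure D4:**
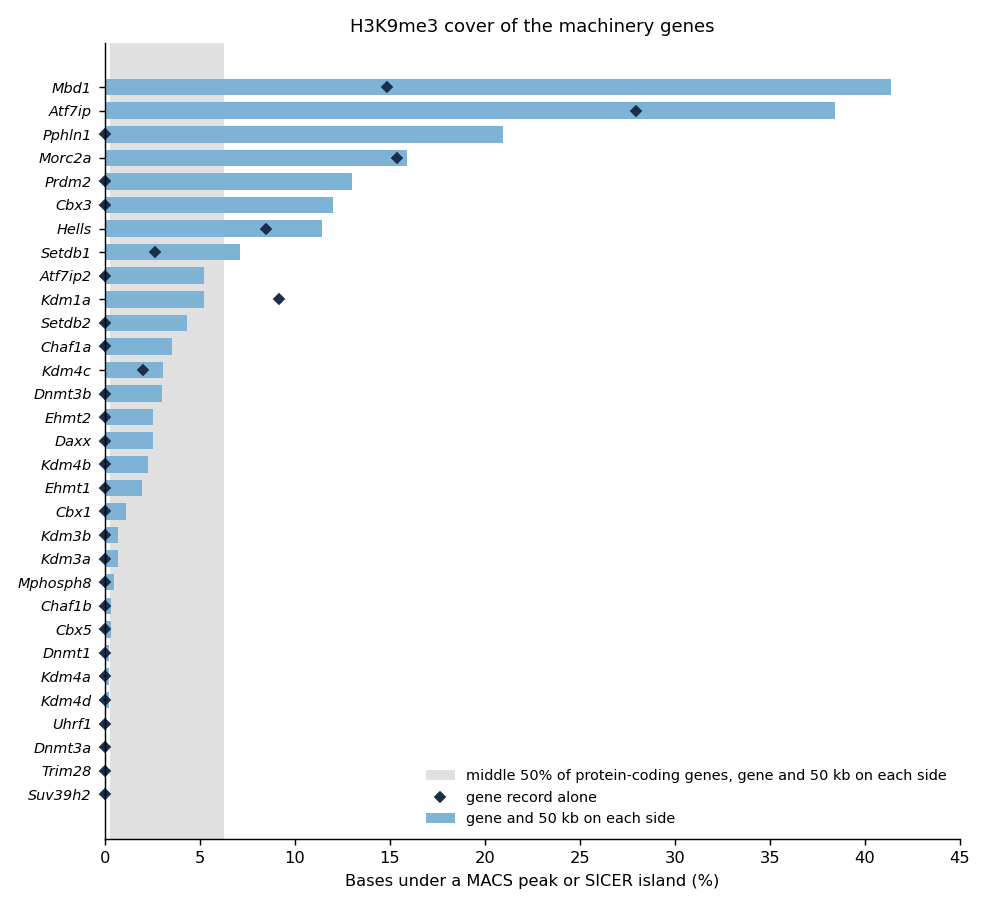
Bases under an H3K9me3 MACS peak or SICER island (%, horizontal axis) for each of the 31 genes (rows, ordered by the bars). Bars show the gene with 50 kb on each side, diamonds the gene record alone, and the grey band the middle 50% of protein-coding genes for the bars. Mbd1 (41.4%) and Atf7ip (38.4%) extend farthest beyond the band, and Pphln1, Prdm2 and Cbx3 have long bars with diamonds at 0.

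The H3K9me3 peaks of the machinery genes were of ordinary strength. The 35 peaks at a start, in a body or within 10 kb had between 11 and 474 tags with a median of 21, and folds between 3.98 and 11.68 with a median of 5.82. Over all 80480 peaks the medians were 18 tags and 5.50-fold. Peaks above 8-fold were found inside Kdm1a, Hells and Atf7ip and upstream of Mbd1 and Morc2a. The Setdb1 sites of Kdm3a and Atf7ip lay above the median fold of the Setdb1 list (7.32) and those of Morc2a and Kdm1a, which overlapped a peak, below it. By tags the order differed, as the Kdm1a site had 46 and the Atf7ip site 38. These 4 sites are too few to relate Setdb1 strength to H3K9me3.

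**Figure D5:**
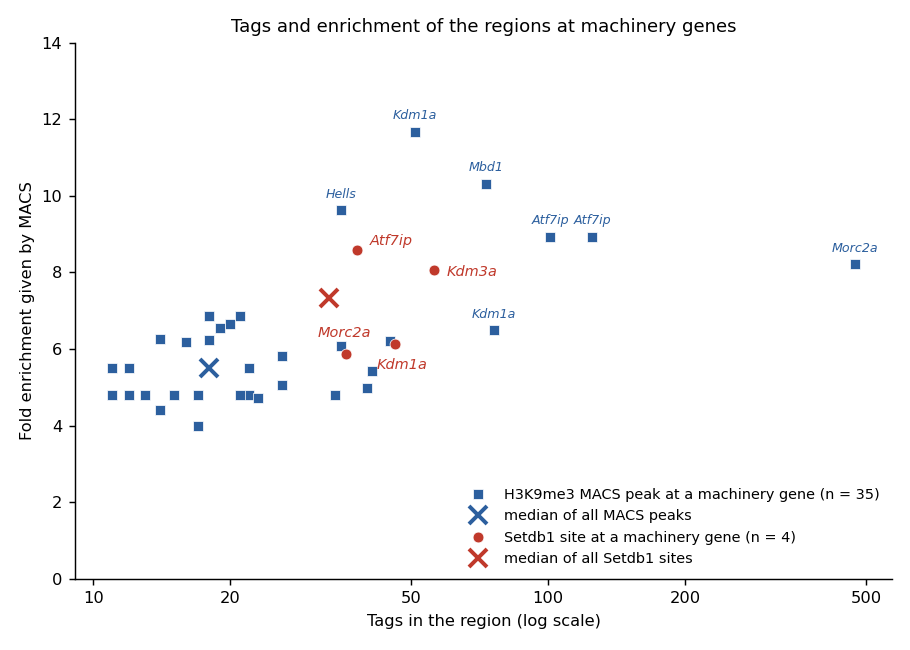
Tags in the region (horizontal axis, logarithmic) and fold enrichment given by MACS (vertical axis) for the 35 H3K9me3 peaks (blue squares) and 4 Setdb1 sites (red circles) at machinery genes, with crosses at the medians of the full lists. Most squares lie below 50 tags and 7-fold, and the Kdm1a peak of 51 tags has the highest fold, 11.68.

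Farther out, the machinery genes lay nearer to Setdb1 sites than most genes, with a median distance of 212 kb against 628 kb, while the medians for H3K9me3 were 17.7 against 20.3 kb for peaks and 38.8 against 50.2 kb for islands. Within 100 kb a site was found for 12 of the 31 genes (38.7%, 21.9 to 57.8%) against 14.2% of protein-coding genes. The 8 genes added between 50 and 100 kb were Chaf1b, Pphln1, Kdm4a, Kdm4b, Cbx5, Prdm2, Ehmt2 and Mbd1, at 51.7 to 99.4 kb. For 4 of these the site lay within 1 kb of the start of another gene: Morc3 for Chaf1b, Yaf2 for Pphln1, Ptprs for Kdm4b and Cyp21a1 for Ehmt2. The strongest was the Ptprs site, with 111 tags and 14.63-fold. Among the 31 genes with a nearest site farther away, some sites lay this near another start, as for Cbx1 and Kdm4c. Others did not, as for Suv39h2 and Hells. The share of all Setdb1 sites this near a start was not counted, so the 4 are description only. Distances were taken from the nearest of all annotated starts of a gene, and the machinery genes were longer than most. The parts that gene density, gene length and the number of starts have in the distances were not tested. Some genes shared their nearest site, such as Setdb2 with Mphosph8 and Dnmt1 with Kdm4d, so their distances are not independent. The 31 genes were also chosen with earlier results of these data known.

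Other genes of the pathway were counted in the same way from a list of 54 symbols, 51 of which matched. This list too was chosen with earlier results of these data known, so its shares are description only. A Setdb1 site lay within 10 kb of a start in 5 of them (9.80%, 3.26 to 21.4%, against 2.48% of protein-coding genes), and in 3 it overlapped H3K9me3 (5.88%, 1.23 to 16.2%, against 1.32%). D14Abb1e, listed by RefSeq as a synonym of Tasor, the third subunit of HUSH beside Mphosph8 and Pphln1, had a site over its start with 86 tags and 10.07-fold in an H3K9me3 region. Prdm9, a methyltransferase of meiotic germ cells, had one over its start with 43 tags and 5.18-fold, and Trim24, a paralogue of Trim28, one 1.93 kb from a start with 57 tags and 8.04-fold, both in H3K9me3 regions. Morc3, a relative of Morc2a, had a site over its start (28 tags, 5.63-fold) and Zbtb38, a reader of methylated CpG, one 784 bp from a start (27 tags, 6.71-fold), both outside H3K9me3 regions.

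In this wider list an H3K9me3 peak lay at a start in 13 of 51 genes (25.5%, 14.3 to 39.6%, against 8.71% of protein-coding genes), in the body in 23 (45.1%, 31.1 to 59.7%, against 26.0%) and within 10 kb in 26 (51.0%, 36.6 to 65.3%, against 32.8%). An island lay at a start in 10 (19.6%, 9.82 to 33.1%, against 8.58%), in the body in 18 (35.3%, 22.4 to 49.9%, against 18.6%) and within 10 kb in 16 (31.4%, 19.1 to 45.9%, against 20.8%). Suv39h1, the X-linked relative of Suv39h2, was among those with a peak in the body. The lengths of these genes were not compared, so the limit on body counts given for the 31 genes applies here too. Because the genes were picked with earlier results of these data known, shares above the background are no test of the pathway. The difference between this list and the 31 genes was not tested.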

How the data were processed

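Setdb1 and H3K9me3 chromatin immunoprecipitates were sequenced by the authors. Per the submitters' processing notes, reads were aligned to mm9 with Bowtie 0.12.7 and peaks called with MACS 1.4. Per the study's methods only uniquely aligned reads without PCR duplicates were used, so repeats are under-represented, and broad islands were called with SICER. Tag counts per peak were deposited as whole reads, not scaled for depth. The fold enrichment deposited is a ratio to the background MACS estimated. The score was deposited as −10 times the log10 of the p-value from MACS, at least 30.0 in the H3K9me3 list and 59.25 in the Setdb1 list. The authors gave the false discovery rate of a peak in percent, at most 1 for Setdb1 and 22.22 for H3K9me3. Islands have positions only.

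Regions were set against the GENCODE genes of NCBIM37, the assembly of mm9, and all lay within its chromosomes. A symbol with more than 1 record was taken by its longest. A region counted with an overlap of at least 1 bp, using every annotated transcript start. Windows for motifs were 300 bases, for promoters 250 before to 50 after the start. All 31 genes are named, with every Setdb1 site within 50 kb and their H3K9me3 peaks of highest fold, and of the wider list those with a site within 10 kb. The members and lists were chosen with earlier results of these data known. Shares have exact binomial intervals (Clopper-Pearson) and tags exact Poisson intervals at 95%. Alternatives changed the starts, windows, distances, caller and strength. Overlap, window and distance functions were checked on simulated regions. The tools were Python 3.11.15 with pandas 2.3.3, NumPy 2.4.6, Matplotlib 3.10.9 and SciPy 1.17.1. No list of the DMSO or Wnt3a library was analysed here.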

Additional observations from a re-analysis of the deposited data

How the results depend on the processing

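Of 39 alternatives, 31 left the count of genes within 1.5 times of that reported. The counts were small, and a fall from 3 genes to 2 still lay within this limit. With 1 start per gene, for example, Kdm1a was lost from the genes with a Setdb1 site within 10 kb. A fold of at least 8 left 1 gene with a Setdb1 site within 10 kb (Kdm3a), against 0.931% of protein-coding genes. Within 50 kb it left 2 (Atf7ip and Kdm3a), against 3.12%. An H3K9me3 peak of this fold lay at a start in 0, against 1.66%, and in the body in 3 (Atf7ip, Kdm1a and Hells), against 6.97%. For a site shared with H3K9me3 within 10 kb the count was 0, against 0.658%. The shares of protein-coding genes thus fell as well. A limit of 100 kb in place of 50 kb gave 12 genes with a Setdb1 site, against 14.2% of protein-coding genes. A start window of 2 kb gave 5 genes with a peak at a start, with Cbx5 and Dnmt1 added, against 11.9%. With 1 start per gene, 1 gene (Morc2a) had a shared site within 10 kb, against 0.904%. No paired analysis was possible because there is 1 library per group. Depth limits the low regions most, as the smallest peaks named rest on 11 tags.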
